A study of Homo sapiens with 10 samples.

Results

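Human U2OS osteosarcoma cells with reduced ARVCF were set against cells with a control hairpin while p53 was active. Of the 10 RNA sequencing libraries of the series, 6 enter this comparison, the 3 shARVCF libraries and the 3 control libraries that received nutlin-3a. The members were taken by their labels alone. The shARVCF libraries 1, 2 and 3 come from cells with 3 different short hairpin RNAs (shRNAs) against ARVCF, delivered by lentivirus, and the control libraries come from cells with a negative control shRNA. All 6 were selected with puromycin at 1 µg/ml and treated with 10 µM nutlin-3a for 24 h, and the labels speak of single clones. The 3 control libraries share 1 shRNA line by their labels, so the p-values say nothing of how control lines vary among themselves. No source used here says whether the libraries of a group were separate cultures. The p-values then reflect only how these libraries scatter, which may be technical scatter. Control libraries 2 and 3 carry much later library numbers in the labels than control library 1 and the shARVCF libraries, which adjoin each other. No label calls this a batch. Only the comparison with control library 1 alone stays within a run of adjoining numbers, and every difference was therefore also tested against each control library alone. The 4 untreated libraries, 3 shARVCF and 1 control, are used only to set the values beside those without drug.

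The series asks how reduced ARVCF changes the transcription that p53 drives. Nutlin-3a occupies the p53 pocket of MDM2, the ubiquitin ligase that keeps p53 low, so that p53 accumulates and switches on genes of cell cycle arrest, repair and apoptosis. Among these is CDKN1A, whose product p21 inhibits cyclin-dependent kinases, and through RB-family proteins and the DREAM complex genes of replication and mitosis are then repressed. ARVCF is an armadillo-repeat protein related to p120 catenin, which binds the inner tails of cadherins at adherens junctions and is also found in the nucleus.

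The deposited values are estimated fragments per gene, scaled per library, and are called scaled fragments here. Scaled totals ran from 17821751 to 19903778 per library. Estimated unscaled totals were 15073345 and 15335595 for control libraries 3 and 2 and between 19369386 and 19924248 for the other 4. In the check of the cell type, the osteoblast genes RUNX2, ALPL, COL1A1 and SPARC were present in all 6 libraries, while IBSP and DLX5 were listed at 0 in each. SP7, the osteoblast transcription factor osterix, was under 2 in all 6, BGLAP, osteocalcin, reached at most 4.77, and COL1A2 ran from 1.83 to 15.5. Of 10 neural and embryonic kidney markers, 5 reached 50 in any library. Among them NEFL, a neurofilament gene, ran from 5859 to 7664 in the 6 libraries, and TUBB3, a neuronal tubulin, from 1010 to 1617 in the shARVCF and from 2381 to 2484 in the control libraries. SYP ran from 190.8 to 681.2 in the shARVCF and from 811.1 to 899.2 in the control libraries. SOX2 went the other way, from 64.6 to 84.9 and from 23.06 to 45.07. PAX2 ran from 38.34 to 67.53 in the 6 libraries. The 10 markers together summed to between 7193 and 10100 in the shARVCF and between 9958 and 10080 in the control libraries, and their part in the results was not tested. Of 16 blood cell markers, 6 reached 10 scaled fragments in any library and only CD68 reached 50. The summed blood markers ran from 164.9 to 490.3 in the shARVCF and from 286.1 to 411.5 in the control libraries.

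A large share of the measured transcriptome differed between the shARVCF and the control libraries under nutlin-3a. Of 14477 genes tested (at least 10 scaled fragments in at least 3 of the 6 libraries, of 26040 genes listed), 4622 were higher (31.9%) and 3879 were lower (26.8%) in the shARVCF libraries, 58.7% in all (limma on log2 of the value plus 1, Benjamini-Hochberg adjusted p under 0.05). In these bulk samples, fewer cells that express a gene and less RNA of it per cell cannot be told apart. Among the called genes, 2163 were at least 2-fold higher and 739 at least 2-fold lower. Without drug, 3 shARVCF libraries could be set against only 1 control library, and 2 genes were called (0.0138%). That test did not call ARVCF itself (log2 -0.93, adjusted p = 0.0957), so its count cannot be set against those with drug. The difference between the shARVCF and control libraries was itself different with and without drug for 4740 genes (32.7%), 2879 in the upward (19.9%) and 1861 in the downward direction (12.9%) (limma interaction term, all 10 libraries). The lone untreated control library was assumed there to vary like the other groups.

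Against single control libraries fewer genes were called. Control library 1 alone gave 3451 higher (23.8%) and 2627 lower (18.1%), control library 2 gave 3760 (26%) and 2600 (18%), and control library 3 gave 3598 (24.9%) and 2429 (16.8%). In each of these fits the lone control library was assumed to vary like the shARVCF libraries. A difference is said below to hold when it was called with all 3 control libraries, called the same way against each alone, and when the 3 shARVCF libraries all lay on 1 side of the 3 control libraries. By that measure 2777 genes were higher (19.2%) and 1754 lower (12.1%), 31.3% of those tested. Counts of list members that held, given below, are to be read beside these shares. Of the 8501 genes called, 4531 held, 1442 were called against 2 control libraries, 1390 against 1 and 1138 against none alone. For 624 of them control library 1 was the single library they were not called against, for 326 it was control library 2 and for 492 control library 3. Among 12197 genes with a mean of at least 50, control library 1 stood at least 2-fold from the mean of control libraries 2 and 3 for 93, while the shARVCF mean stood at least 2-fold from the control mean for 2385.

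**Figure D1:**
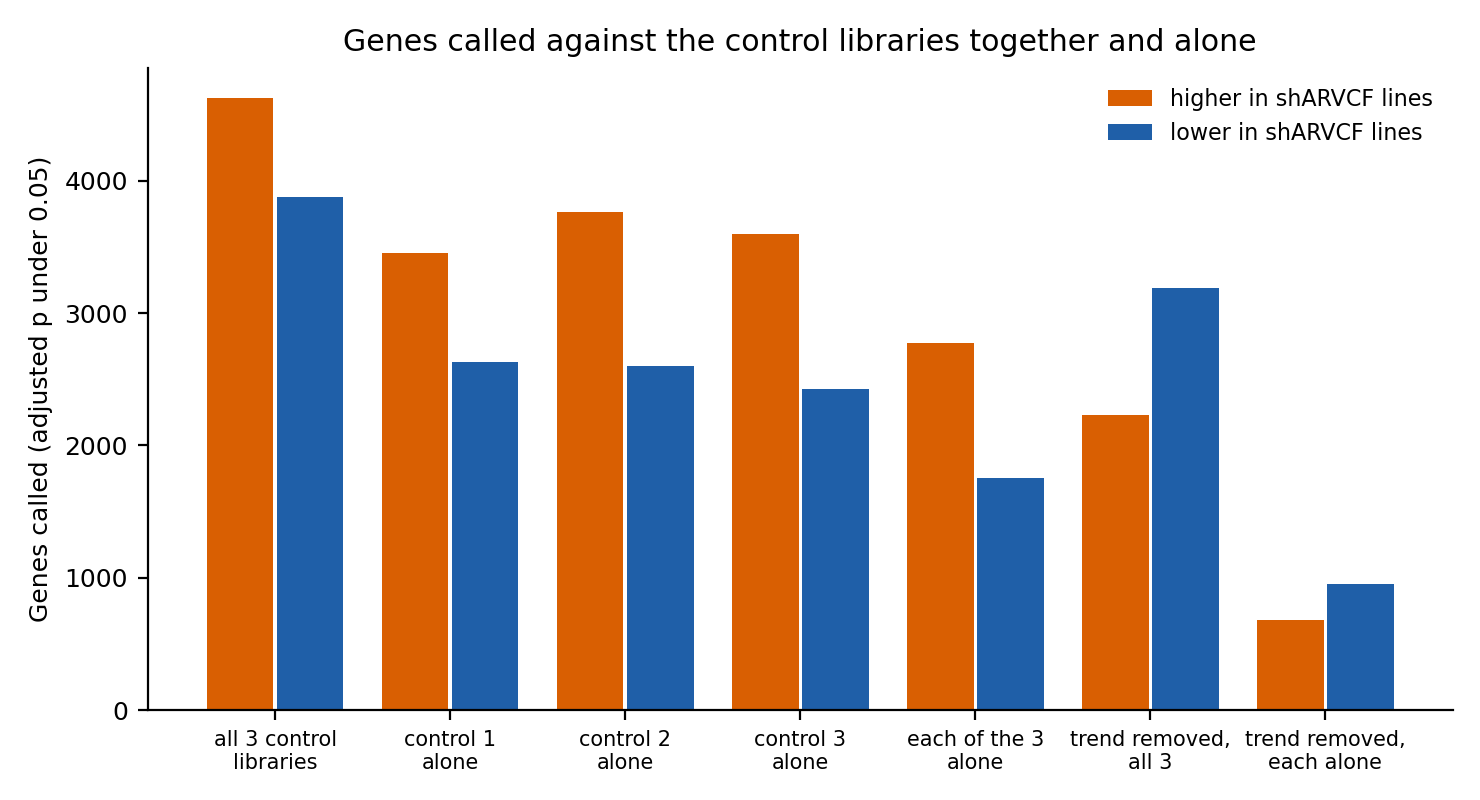
Number of genes called at an adjusted p under 0.05 (vertical axis) as higher (orange) or lower (blue) in the shARVCF libraries, against all 3 control libraries, against each alone, against each of the 3 (called in all these fits), and after removal of the length and GC trend. The count falls from 4622 higher and 3879 lower to 2777 and 1754 that hold against each control library, and to 684 and 952 once the trend is also removed.

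The differences moved with transcript length. Across 14291 genes with a known spliced length, which are not independent replicates, Spearman's rho between the log2 difference and spliced length was 0.59, and -0.53 with GC content. Against control libraries 1, 2 and 3 alone, rho with length was 0.61, 0.55 and 0.57. Without drug it was 0.00, and -0.31 with GC content. When each treated library was set against the mean of the untreated libraries, rho with length was 0.00, -0.03 and -0.07 for the 3 shARVCF libraries and -0.47, -0.42 and -0.43 for the 3 control libraries. The trend thus lay in the treated control libraries, those of both runs of library numbers. With the genes ordered by length in 10 bins of equal size, the first bin (112 to 1377 nt) had a median log2 difference of -0.72, with 4.41% called higher and 59.4% lower. In the last bin (7568 to 91667 nt) the median was 0.95, with 75.6% higher and 3.43% lower. The part of length and GC in these differences was not tested, and values after removal of each library's trend with both are given below beside the results they change. After that removal 2230 genes were higher (15.6%) and 3189 lower (22.3%), and 684 higher (4.79%) and 952 lower (6.66%) held against each control library. Counts of list members after the removal, given below, are to be read beside these shares. Both with and without the removal, 627 genes held as higher and 348 as lower. Another 342 genes went from called higher to called lower and 26 from lower to higher.

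**Figure D2:**
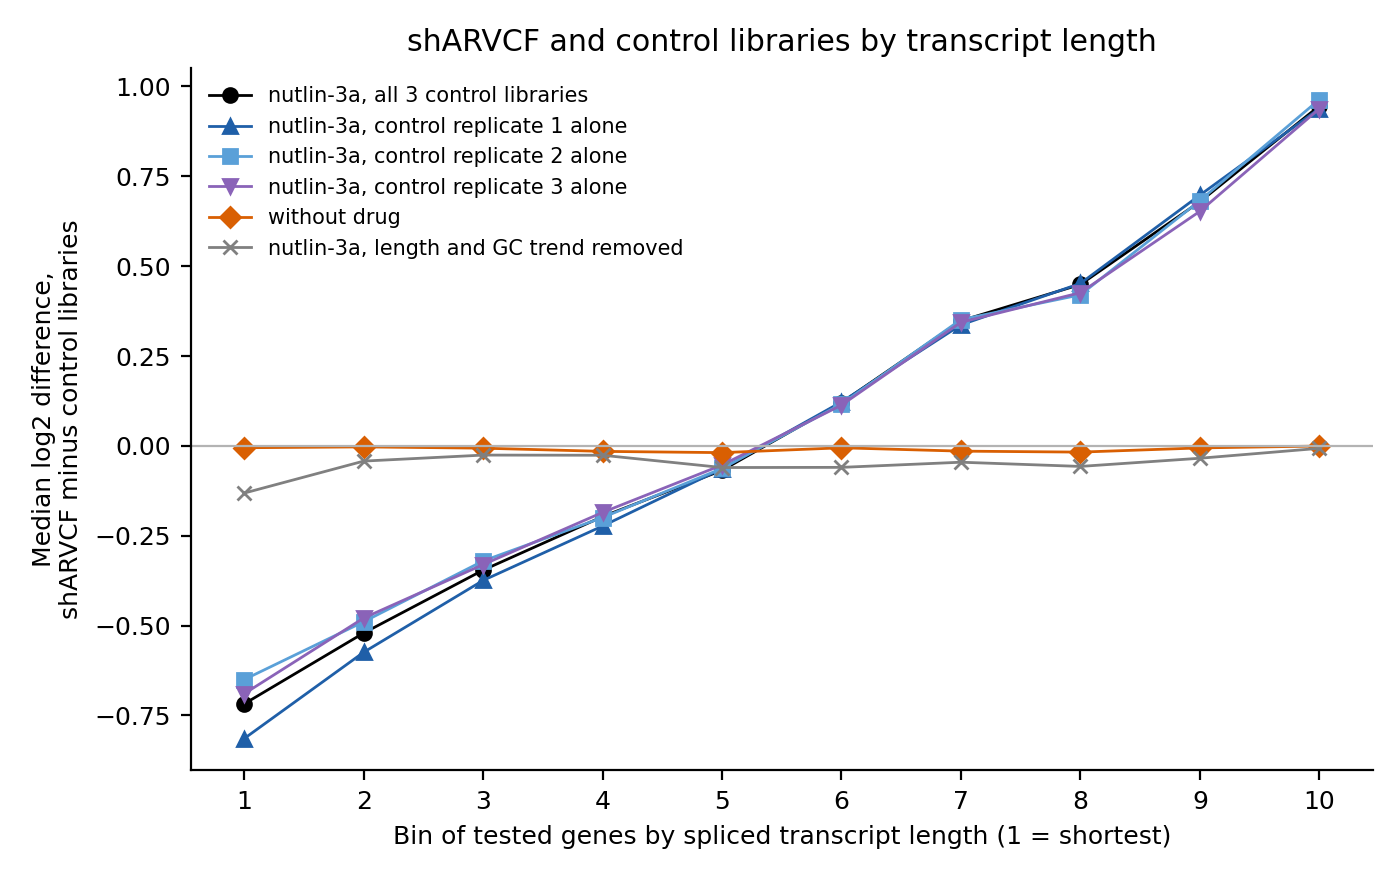
Median log2 difference, shARVCF minus control libraries (vertical axis), in 10 bins of the tested genes ordered by spliced transcript length (horizontal axis, 1 is the bin of the shortest). Under nutlin-3a the median climbs from -0.72 to 0.95, along similar lines for each control library, while the line without drug and the line after removal of the length and GC trend lie near 0.

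ARVCF (chromosome 22, 19969896 to 20016808, minus strand) was lower in every shARVCF library. It read 1284, 1188 and 1232 scaled fragments in shARVCF libraries 1, 2 and 3 and 2928, 2571 and 2376 in control libraries 1, 2 and 3, so the groups did not overlap. The log2 difference was -1.08 (SE 0.11, adjusted p = 3.9e-06), and it held, at -1.25, -1.06 and -0.94 against the control libraries alone. It was -0.83 after removal of the length and GC trend (adjusted p = 4.61e-05), where it also held. Without drug ARVCF read 291.8, 343.2 and 338 with the ARVCF hairpins and 617.7 in the control library.

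MDM2, the p53 target that closes the feedback loop, and CDKN1A did not go together. MDM2 (chromosome 12, 68808176 to 68850686, plus strand) read 21990, 18850 and 23800 in the shARVCF libraries and 11200, 9497 and 10730 in the control libraries. Every shARVCF library was above every control library, by log2 1.04 on average (SE 0.12, adjusted p = 1.19e-05), and the difference held against each control. Without drug the means were 2286 and 2244, and the difference with drug was larger than that without (interaction log2 1.03, adjusted p = 0.00542). The longest annotated MDM2 transcript has 12633 nt, and after removal of the length and GC trend the difference was -0.15 (adjusted p = 0.318). CDKN1A (chromosome 6, 36676460 to 36687339, plus strand) read 28170, 27230 and 32930 in the shARVCF and 33480, 34780 and 27850 in the control libraries. The groups overlapped and the difference was not called (log2 -0.12, adjusted p = 0.422). After the removal it was 0.38 (adjusted p = 0.0167), a value that did not hold against each control library.

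**Figure D3:**
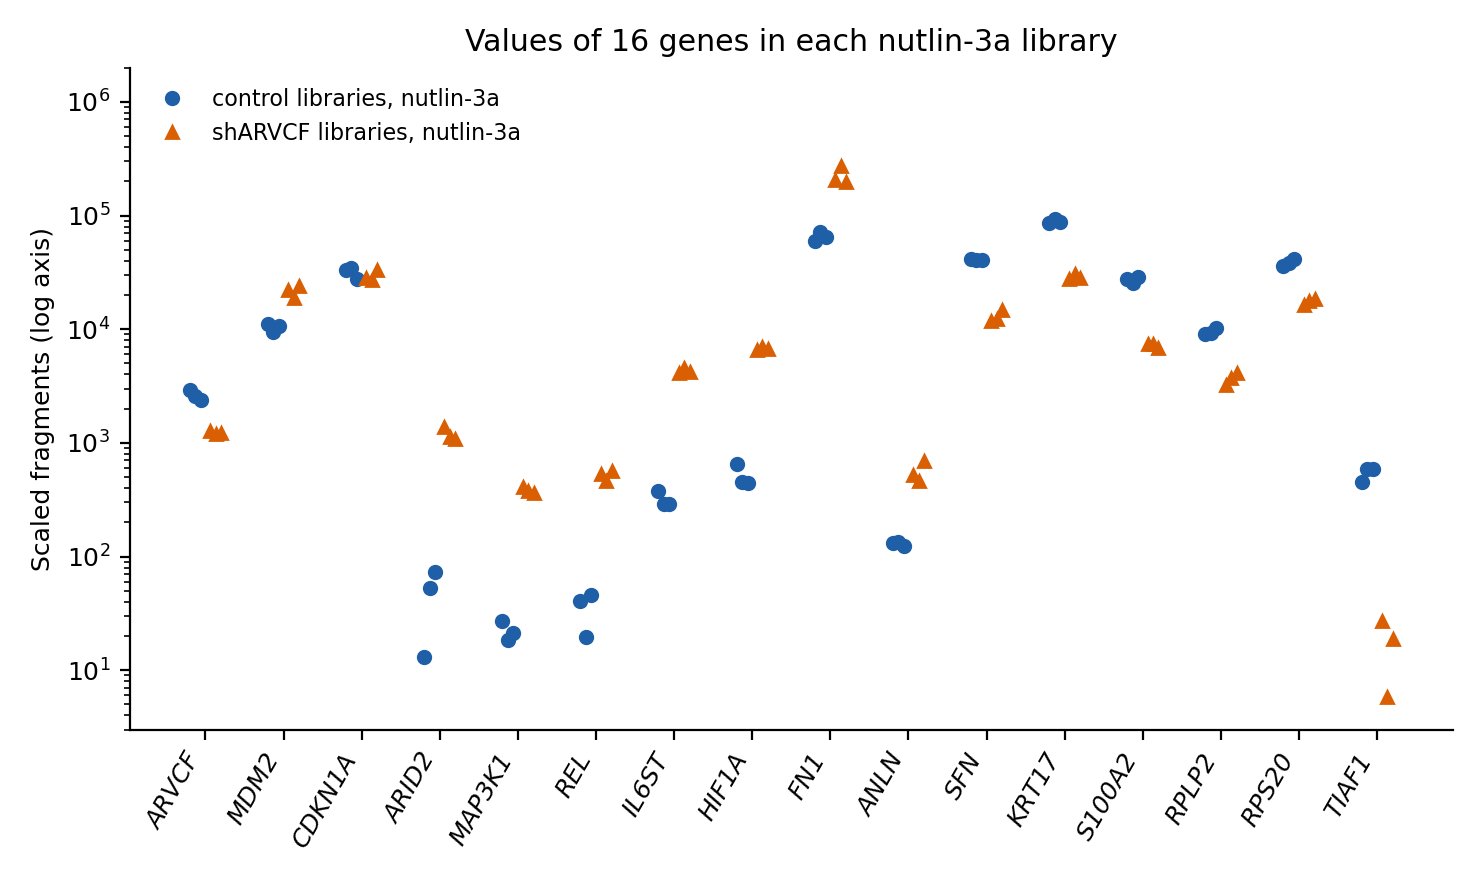
Scaled fragments (vertical log axis) of selected genes in each nutlin-3a library, with control libraries as blue circles and shARVCF libraries as orange triangles, replicates 1 to 3 from left to right. CDKN1A overlaps between the groups, while ARVCF, SFN, KRT17, S100A2, RPLP2, RPS20 and TIAF1 lie lower and MDM2, ARID2, MAP3K1, REL, IL6ST, HIF1A, FN1 and ANLN higher in all 3 shARVCF libraries.

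The p53 targets as a whole split almost evenly. Of 113 tested targets on 4 lists, 32 were higher (28.3%) and 34 lower (30.1%), beside 31.9% and 26.8% of all genes, with a median log2 difference of 0.03 beside 0.04. These shares are near the background. Of them, 21 held as higher (18.6%) and 20 as lower (17.7%), beside 19.2% and 12.1% of all genes. The direction went with transcript length, as it did over all genes. Among the 60 targets shorter than the median of all genes tested (3363 nt), 8 were higher (13.3%) and 29 lower (48.3%). Over the length bins up to 3363 nt, 4.41% to 21.5% of all genes were higher and 24.9% to 59.4% lower. Among the 53 longer targets 24 were higher (45.3%) and 5 lower (9.43%). In the bins of longer genes, 32% to 75.6% of all genes were higher and 3.43% to 18.2% lower. The medians of the shorter and longer targets were -0.34 and 0.30, and -0.03 and -0.15 after removal of the length and GC trend. After the removal 9 of the shorter targets were higher and 17 lower, and 9 of the longer were higher and 18 lower. Of all genes 15.6% were then higher and 22.3% lower.

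Among 30 targets of feedback and cell cycle arrest, 10 were higher (33.3%) and 11 lower (36.7%), beside 31.9% and 26.8% of all genes (median 0.16). Of them 7 and 7 held (23.3% each), beside 19.2% and 12.1% of all genes. After the removal 4 were higher and 12 lower (median -0.15), beside 15.6% and 22.3% of all genes. SFN, which encodes the 14-3-3 sigma protein that keeps cyclin B-CDK1 in the cytoplasm, read 11800, 12280 and 14710 in the shARVCF and 41840, 40800 and 40920 in the control libraries. Every control library was more than 2-fold above every shARVCF library. The difference was log2 -1.68 (SE 0.11, adjusted p = 2.27e-07) and held, also after the removal (-0.80). GDF15, a secreted stress cytokine, read 1740, 1728 and 1718 against 3406, 3473 and 2927. That difference held (log2 -0.91, adjusted p = 9.7e-06), but it was -0.01 once the trend was removed. On the higher side, E2F7, a repressor of E2F target genes, read 2763, 2814 and 3610 against 1188, 1088 and 1081, and held (log2 1.44, adjusted p = 1.02e-06). After the removal E2F7 stood at 0.64 and was called with all 3 controls (adjusted p = 0.0011) but did not hold against each. TP53INP1, which acts in autophagy and in cell death, read 4979, 4659 and 4861 against 2398, 2354 and 2639. It held too (log2 0.97, adjusted p = 4.2e-06), and stood at 0.10 after the removal (adjusted p = 0.438).

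Of 20 targets of apoptosis and death receptors, 5 were higher (25%) and 7 lower (35%), not far from the 31.9% and 26.8% of all genes. The median was 0.11, and 0.00 after the removal. Of them 3 and 3 held (15% each), beside 19.2% and 12.1% of all genes. APAF1, the scaffold of the apoptosome, read 699.4, 614 and 859.6 in the shARVCF and 301, 227.1 and 270.9 in the control libraries (log2 1.44, adjusted p = 7.79e-06, held). BAX, which forms pores in the outer mitochondrial membrane, went the other way with 2806, 3005 and 2962 against 5790, 4908 and 5257 (log2 -0.86, adjusted p = 1.47e-05, held). TP53I3, a quinone oxidoreductase, read 10300, 10710 and 11770 against 21060, 21280 and 22440 (log2 -0.98, adjusted p = 5.84e-06, held). The death receptor gene EDA2R was higher (log2 0.63, adjusted p = 0.000107, held). The longest transcripts of APAF1 and BAX measure 7055 and 1358 nt. After removal of the length and GC trend, APAF1 stood at 0.48, BAX at -0.10, TP53I3 at -0.40 and EDA2R at 0.27, and none of these 4 held.

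Of 26 targets of DNA repair, metabolism and autophagy, 6 were higher (23.1%) and 4 lower (15.4%), beside 31.9% and 26.8% of all genes (median 0.05). Of them 4 and 4 held (15.4% each), beside 19.2% and 12.1% of all genes. ACER2, an alkaline ceramidase, read 650.9, 744.7 and 754.3 in the shARVCF and 248.7, 238.2 and 271.9 in the control libraries. Its 3 shARVCF values were all more than 2-fold above the control values, and the difference held (log2 1.50, SE 0.12, adjusted p = 1.08e-06). Its transcript measures 2238 nt, and after the removal the difference was 1.56 and also held. FDXR, the mitochondrial ferredoxin reductase, read 7982, 8642 and 8632 against 16460, 14890 and 14250 (log2 -0.85, adjusted p = 1.92e-05, held), and stood at -0.10 after the removal. ASCC3, a DNA helicase of alkylation repair, read 4315, 4356 and 4608 against 1839, 1552 and 1584 (log2 1.42, adjusted p = 3.73e-07, held) and stood at 0.35 after it. RRM2B, the p53-inducible ribonucleotide reductase subunit, held as higher (log2 0.81, adjusted p = 4.06e-05) and stood at -0.05 after it. Of 37 targets with other roles, 11 were higher (29.7%) and 12 lower (32.4%), near the shares of all genes. Their median of 0.01 turned to -0.15 after the removal. KITLG, the ligand of the receptor KIT, was among those that held as higher (log2 1.27, adjusted p = 3.73e-06), with 0.33 after the removal.

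Genes of mitosis were higher in the shARVCF libraries. The cell cycle homology element, TTTGAA or TTCGAA, is a short promoter sequence through which the DREAM complex is known to act on mitotic genes. It is shown here for ANLN, the actin-binding scaffold of cytokinesis, and MKI67, the source of the Ki-67 antigen, because these genes stood far apart between the groups. The stretches are taken from RefSeq promoter windows (build GRCh38.p14), at chr7:36389820-36389861 on the plus strand for ANLN and chr10:128126424-128126474 on the minus strand for MKI67. Both run 5′ to 3′ up to the last base before the RefSeq start, and the capitals mark the element nearest to it, 14 bases before the start of ANLN and 23 bases before that of MKI67.
ANLN: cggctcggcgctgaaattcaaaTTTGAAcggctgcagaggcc
MKI67: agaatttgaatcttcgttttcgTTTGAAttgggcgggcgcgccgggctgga
In windows from 250 bases before to 50 bases after the start, searched on both strands, 48 of 66 mitosis genes with a window held the element (72.7%), beside 11.3% of 10772 tested genes and 16.6% of all 27305 windows. A match describes these letters only.

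Of 78 tested mitosis genes, 58 were higher (74.4%) and 1 was lower, beside 31.9% and 26.8% of all genes, and 28 held as higher and 0 as lower. The median log2 difference was 1.16, and 1.21, 1.20 and 1.11 against control libraries 1, 2 and 3 alone, which called 39, 41 and 35 members as higher and 0 as lower. ANLN read 516.7, 458.8 and 688.8 in the shARVCF and 132.4, 133.9 and 123 in the control libraries (log2 2.07, SE 0.17, adjusted p = 8.55e-07, held). MKI67 read 446.6, 321.9 and 525.9 against 77.21, 117.2 and 97.12 (log2 2.13, SE 0.21, adjusted p = 4.48e-06, held). CENPF, a large kinetochore protein, read 386.2, 391.3 and 545.3 against 111.3, 100.5 and 117.8 (log2 1.98, adjusted p = 1.62e-06, held). In all 3 genes shARVCF library 3 was the highest, and every shARVCF value was above every control value. Without drug the values were of another order, with means of 9960 for ANLN, 17480 for MKI67 and 12050 for CENPF in the shARVCF libraries and 9599, 17360 and 11140 in the control library. The treated values of both groups were thus a small part of the untreated ones. SMC2, a condensin subunit, read 515.8, 617 and 601.4 against 161.4, 158.4 and 170.9 (log2 1.81, adjusted p = 4.74e-07, held). The single member that was lower was PTTG1, the securin gene, at 363.3, 418.1 and 743.1 against 869.4, 734.3 and 809.4. Its groups overlapped, and its call (log2 -0.73, adjusted p = 0.0315) did not hold against any control library alone.

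The median spliced length of the mitosis list was 3374 nt, beside 3363 nt for all genes tested. Its median GC content was lower, 42.22% beside 48.82%, and over all genes rho of the difference with GC content was -0.53. After removal of the length and GC trend 44 of the 78 members were higher and 1 lower (median 0.89), beside 15.6% and 22.3% of all genes. Only 5 then held as higher, near the 4.79% of all genes, and 1 as lower, beside 6.66%. ANLN and SMC2 held after the removal at 1.31 and 0.85, while CENPF at 0.83 and MKI67 at 1.14 were called but did not hold. Relative to the mean of the 6 libraries, the median mitosis gene stood at 0.37, 0.38 and 1.08 in shARVCF libraries 1, 2 and 3 and at -0.54, -0.61 and -0.51 in control libraries 1, 2 and 3. Library 3 thus stood apart among the shARVCF libraries. Without it 45 members were higher and 1 lower, with a median of 0.97. Among mitosis genes that were tested and had a promoter window, 38 of 45 with the element were higher and 0 lower (median 1.36). Of the 17 without it, 9 were higher and 1 lower (median 0.91). Among genes outside the list the shares were 37.4% higher and 21.3% lower with the element (1167 genes, median 0.16), and 32.4% and 28.5% without it (9543 genes, median 0.02). After removal of the length and GC trend, the medians outside the list were -0.07 with the element and -0.06 without it. Within the list they were 1.10 and 0.56. Mitosis genes with the element were also longer, with a median of 3964 nt beside 2704 nt. The part of the element was not tested.

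Of 57 tested replication genes, 24 were higher (42.1%) and 5 lower (8.77%), beside 31.9% and 26.8% of all genes (median 0.44). As higher 8 held (14%), beside 19.2% of all genes, and as lower 0. The count of 5 lower was 1 without shARVCF library 1, 1 without control library 3, 2 without shARVCF library 2 and 3 without control library 2. Against control library 1 alone 11 were higher and 1 lower. POLE, the catalytic subunit of DNA polymerase epsilon, read 186.2, 206.3 and 235.1 in the shARVCF and 109.7, 102.2 and 94.32 in the control libraries (log2 1.03, adjusted p = 0.000283, held). POLA1, of the primase complex, read 209.1, 241.4 and 245.1 against 114.3, 130.1 and 121.7 (log2 0.92, adjusted p = 0.000373, held). DNA2, a nuclease and helicase of Okazaki fragments, read 68.47, 46.91 and 68.4 against 22.81, 17.04 and 19.42 (log2 1.57, adjusted p = 0.000634, held). These 3 differences did not hold after removal of the length and GC trend, at 0.58, 0.14 and 0.86. The list median was then 0.33, with 14 higher, 3 lower and 0 that held.

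Genes of the cytosolic ribosome were lower in the shARVCF libraries. Many mRNAs of this class begin with a C followed by a run of pyrimidines, the terminal oligopyrimidine motif through which mTOR signalling is known to control their translation. The start sites of RPLP2, of the ribosomal stalk, and RPL18, of the large subunit, are shown as examples of members with that start. They are from RefSeq (build GRCh38.p14), at chr11:809947-809981 on the plus strand and chr19:48619164-48619198 on the minus strand, from 20 bases before to 15 bases after the start, 5′ to 3′. The capitals mark the run of pyrimidines from the first transcribed base.
RPLP2: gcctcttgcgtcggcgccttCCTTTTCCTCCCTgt
RPL18: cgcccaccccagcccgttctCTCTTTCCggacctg
A first base C followed by 4 pyrimidines, read on the gene's strand, was found in 43 of 63 ribosomal protein genes with a window (68.3%), beside 5.12% of the tested genes and 4.04% of all windows.

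Of 77 tested ribosomal protein genes, 75 were lower (97.4%) and 0 higher, beside 26.8% and 31.9% of all genes, and 69 held as lower. The median was -0.94, and -1.08, -0.79 and -0.87 against control libraries 1, 2 and 3 alone. RPLP2 read 3199, 3756 and 4141 in the shARVCF and 9128, 9256 and 10330 in the control libraries (log2 -1.38, SE 0.12, adjusted p = 1.17e-06, held). RPL18 read 8498, 7917 and 10030 against 20980, 19690 and 19510 (log2 -1.19, adjusted p = 2.9e-06, held). RPS20, of the small subunit, read 16430, 17860 and 18490 against 36170, 38200 and 41610 (log2 -1.13, adjusted p = 2.87e-06, held). RPS15A read 6904, 6707 and 6962 against 14180, 13660 and 14210 (log2 -1.03, adjusted p = 2.36e-06, held). In these 4 genes the groups did not overlap. The shARVCF libraries were closer to the untreated ones, in which RPS20 had a mean of 14940 with shARVCF and 14390 in the control, and RPLP2 3581 and 3595. Ribosomal protein genes have many processed pseudogenes, and how the authors' counting split such reads is not stated in the labels.

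The ribosomal list has a median spliced length of 1170 nt. After removal of the length and GC trend 59 members were lower and 0 higher (median -0.64), and 33 held as lower. RPS20 (-1.11) and RPS15A (-0.97) held then, with longest annotated transcripts of 1826 and 2203 nt, while RPLP2 (-0.52) and RPL18 (-0.32) were called but did not hold. The start sequence separated members little. All 41 tested members with the pyrimidine start were lower (median -1.01), and 19 of the 20 without it (median -0.87). Outside the list, 31.9% of 511 genes with that start were lower and 29.9% higher.

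Most genes of the mitochondrial ribosome, the respiratory chain and the proteasome were also lower. Of 75 mitochondrial ribosomal protein genes, 62 were lower (82.7%, beside 26.8% of all genes) and 0 higher (median -0.80), and 47 held. MRPL27 read 571.5, 717.9 and 733.4 in the shARVCF and 1787, 1588 and 1775 in the control libraries (log2 -1.35, adjusted p = 1.8e-06, held), and it held at -1.47 after the removal. Its longest transcript measures 2441 nt, beside a median of 1500 nt for the list. The median difference of the list shrank to -0.35 after the removal. Of 74 nuclear genes of the respiratory chain and ATP synthase, 67 were lower (90.5%) and 1 higher (median -0.78), and 53 held as lower. NDUFA13, a subunit of complex I, read 1245, 1319 and 1302 against 3272, 3161 and 3220 (log2 -1.32, adjusted p = 3.14e-07, held). The single higher member was NDUFS1, the largest subunit of complex I, at 1486, 1491 and 1543 against 1050, 873.1 and 941.4 (log2 0.66, adjusted p = 0.000156, held). Its longest transcript measures 11819 nt, beside 991 nt for NDUFA13, and after removal of the length and GC trend it was lower at -0.50 (adjusted p = 0.00163) while NDUFA13 stood at -0.43. After the removal 39 mitochondrial ribosomal genes were lower and 0 higher (20 held), and 57 respiratory genes lower and 1 higher (29 held as lower). Of 34 proteasome genes, 28 were lower (82.4%) and 0 higher (median -0.67), 22 held, and 22 were lower after the removal, of which 9 held. PSMD8, of the regulatory lid, was an example (log2 -0.98, adjusted p = 4.89e-06, held), at -0.42 after it. Of 60 translation factors, 31 were lower (51.7%) and 10 higher (16.7%) (median -0.35). Against its list, EIF4G2, an initiation factor that lacks the eIF4E-binding site of its eIF4G relatives, read 22800, 22100 and 22670 against 9248, 8076 and 7342 (log2 1.46, adjusted p = 5.18e-07, held) and held at 0.92 after the removal.

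**Figure D4:**
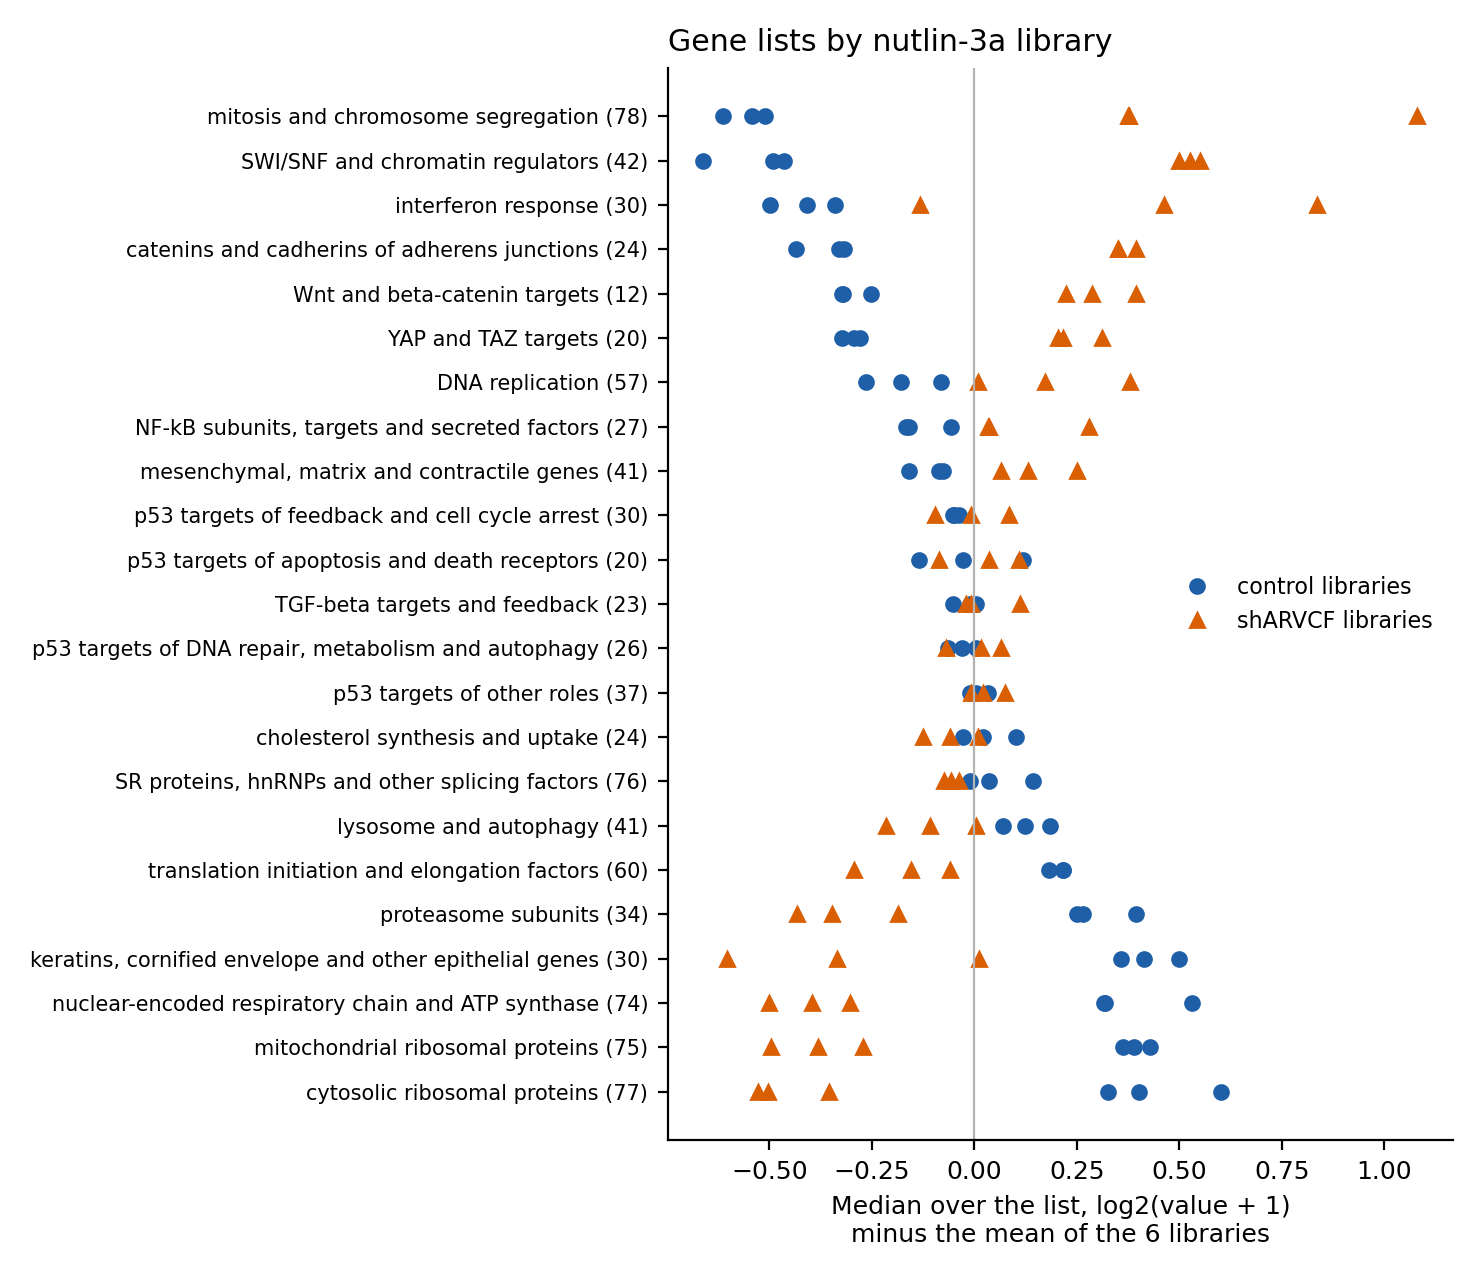
For each gene list (number of tested members in brackets), the median over its members of log2(value + 1) minus the member's mean over the 6 libraries, per library. Control libraries are blue circles and shARVCF libraries orange triangles. Mitosis, chromatin and junction genes lie higher in all 3 shARVCF libraries, ribosomal, respiratory and proteasome genes lower, and the 4 p53 lists lie near 0 in both groups.

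The genes that stood furthest apart upward, among those that held and had a mean of at least 50, were far below the untreated level in the treated control libraries. Over the 15 genes of this set, the treated control mean was 0.0237 to 0.216 times the untreated control value. The treated shARVCF mean was 0.635 times (ARID2) to 2.47 times (ZNF699, a zinc finger gene) the untreated shARVCF mean. ARID2, a subunit of the PBAF chromatin remodelling complex, read 1371, 1127 and 1074 in the shARVCF libraries and 12.95, 52.43 and 73.21 in the control libraries. The control values were spread widely, but each shARVCF value was more than 10 times any of them (log2 4.96, SE 0.69, adjusted p = 0.00283, held). Without drug ARID2 stood at 1876 and 1947 with and without the ARVCF hairpins. MAP3K1, a kinase of the JNK pathway, read 407.2, 377.4 and 362.2 against 27.25, 18.41 and 21.4 (log2 4.05, adjusted p = 4.55e-08, held). REL, an NF-kB subunit, read 531.6, 465.6 and 563.9 against 40.81, 19.46 and 45.43 (log2 3.93, adjusted p = 6e-07, held). The untreated means of MAP3K1 were 524.1 and 525.6 and those of REL 585.3 and 556.7, so the treated shARVCF libraries lay nearer to the untreated level than the treated control libraries. IL6ST, the gp130 subunit shared by receptors of the interleukin-6 family, read 4159, 4548 and 4201 against 378.2, 287 and 292 (log2 3.76, SE 0.12, adjusted p = 4.84e-09, held). HIF1A, the oxygen-regulated transcription factor subunit, read 6565, 7005 and 6718 against 648.9, 448.5 and 440.1 (log2 3.74, SE 0.14, adjusted p = 7.19e-09, held). Its untreated values were 7513 and 6520. HIF1A is the shortest of these 5, with 3956 nt, and the others run from 7011 to 11255 nt.

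The same set held NCOA2, a coactivator of nuclear receptors (log2 3.50), ATXN1L, a paralog of ataxin-1 (3.56), DMXL2, a regulator of the vacuolar proton pump (3.49), FAM171B (3.84) and ZNF699 (3.67). All 5 held also after removal of the length and GC trend, at 2.50, 2.85, 2.33, 2.91 and 3.21. So did ARID2 (3.88), MAP3K1 (3.12), REL (2.70), IL6ST (2.57) and HIF1A (3.05). In each of these 10 genes the difference with drug exceeded that without, by an interaction log2 of 3.28 (DMXL2) to 5.02 (ARID2). The genes were picked by their difference in the same treated libraries. The excess therefore follows largely from that choice and is no separate evidence. A further 4 genes of the set are uncertain because they share sequence or exons with neighbours or relatives. POTEE (log2 4.52) and POTEF (3.84) belong to a family of near-identical copies, KIAA0754 (4.46) lies within MACF1, and ZBED6 (3.80) lies within ZC3H11A.

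The genes furthest apart downward by the same rule included S100A2. S100A2, a calcium-binding protein of epithelia and a known p53 target, read 7462, 7387 and 6851 in the shARVCF and 27490, 25560 and 28560 in the control libraries. Every control library was more than 3-fold above every shARVCF library (log2 -1.91, SE 0.10, adjusted p = 4.69e-08, held), and the difference was -1.30 and held after removal of the length and GC trend. Its untreated values were 3663 and 3576, so that here both treated groups lay above the untreated level. SPOCD1 read 114.1, 130.4 and 200.5 against 518.4, 570.5 and 568.6 (log2 -1.93, adjusted p = 4.69e-06, held, also after the removal at -1.76). BCL2A1, an anti-apoptotic member of the BCL2 family, read 37.43, 53.65 and 117.8 against 308.8, 275.6 and 367.8 (log2 -2.33, adjusted p = 0.000667, held). TNNT2, cardiac troponin T, read 94.26, 87.7 and 65.55 against 234.5, 351.2 and 341.8 (log2 -1.89, adjusted p = 1.06e-05, held). BCL2A1 and TNNT2 were called but did not hold after the removal, at -2.23 and -1.19. LDLRAD2 read 9.607, 4.104 and 5.454 against 149.8, 161 and 69.66 (log2 -4.09, held, also after the removal). All its shARVCF values lay under the filter value of 10, so it was tested only because of its control values. Its call is therefore no separate evidence, and the size of its difference is uncertain. YBX2, a germ cell RNA-binding protein (log2 -2.42), RRAD, a small GTPase (-1.79), and CALML3, a calmodulin-like protein of epithelia (-1.75), held, and did not hold after it. TIAF1 had the largest difference of this set (27.05, 5.764 and 18.85 against 449.6, 591.4 and 587.8, log2 -5.12), but it lies within MYO18A and is uncertain, as is LCE1C (-2.43), 1 of a cluster of near-identical cornified envelope genes.

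Chromatin regulators were higher as a group. Of 42 tested, 29 were higher (69%) and 4 lower (9.52%), beside 31.9% and 26.8% of all genes, and 24 held as higher and 0 as lower (median 1.07). ASXL2, a Polycomb-associated protein, read 3068, 2886 and 2865 in the shARVCF and 375, 437.9 and 389.8 in the control libraries (log2 2.87, SE 0.10, adjusted p = 4.84e-09, held). KMT2A, a histone H3 lysine 4 methyltransferase, read 2743, 2142 and 2154 against 453.7, 439 and 441.3 (log2 2.39, adjusted p = 2.85e-08, held). The treated shARVCF values of both lay nearer than the treated control values to the untreated means, 3079 and 2976 for ASXL2 and 3012 and 3052 for KMT2A. This list has the longest transcripts, with a median of 8118 nt. After removal of the length and GC trend its median was 0.20, with 20 higher and 5 lower, of which 14 and 2 held. ASXL2 and KMT2A still held then, at 1.68 and 1.28.

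Of 76 splicing factors, 19 were higher (25%) and 27 lower (35.5%), near the 31.9% and 26.8% of all genes. The median was -0.11, and it changed sign to 0.01 with library totals as the scaling. MBNL1, the muscleblind regulator of alternative exons, read 2345, 2436 and 2552 against 430.4, 258.8 and 346.2 (log2 2.85, adjusted p = 1.22e-07, held). SON, a scaffold of nuclear speckles, read 8674, 7515 and 7291 against 2613, 2618 and 2678 (log2 1.56, adjusted p = 1.86e-07, held), and the helicase gene DDX17 read 7382, 6115 and 6728 against 2111, 2312 and 2275 (log2 1.59, adjusted p = 1.91e-07, held). All 3 also held after removal of the length and GC trend, at 1.90, 0.68 and 0.97. After the removal 6 factors were higher and 35 lower, when 15.6% and 22.3% of all genes were.

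Among genes of adherens junctions, where ARVCF acts, 15 of 24 were higher (62.5%) and 4 lower (16.7%), beside 31.9% and 26.8% of all genes (median 0.77), and 12 and 2 held. ARVCF itself is 1 of the 2 that held as lower, and JUP, plakoglobin, is the other. ERBB2IP, the symbol in the table for erbin, which binds ARVCF and its close relatives, read 4603, 4469 and 3908 in the shARVCF and 1557, 1256 and 1472 in the control libraries (log2 1.60, adjusted p = 3.3e-07, held). PKP2, plakophilin 2, a desmosomal relative of ARVCF, read 1447, 1293 and 997.5 against 520.4, 481.8 and 491.5 (log2 1.30, adjusted p = 6.2e-06, held). MLLT4, the table's symbol for afadin, read 2507, 2350 and 2461 against 939.5, 1144 and 1216 (log2 1.16, adjusted p = 3.9e-06, held). After removal of the length and GC trend the list median was 0.07. Of the 24 genes 4 were then higher and 4 lower, near the 15.6% and 22.3% of all genes. ARVCF was the only member of the list that held after the removal. ERBB2IP then stood at 0.41, PKP2 at 0.82 and MLLT4 at 0.29.

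Of 30 keratins and other epithelial genes, 14 were lower (46.7%) and 5 higher (16.7%), beside 26.8% and 31.9% of all genes (median -0.71). As lower 5 held (16.7%), near the 12.1% of all genes, and as higher 3 (10%, beside 19.2%). KRT17, a keratin of basal and wounded epithelium, read 27910, 30340 and 27930 against 86420, 93870 and 88310 (log2 -1.64, SE 0.10, adjusted p = 1.62e-07, held). KRT8, of simple epithelium, read 4596, 4540 and 6259 against 12590, 12640 and 11940 (log2 -1.29, adjusted p = 4.33e-06, held). Both held after the removal, at -0.86 and -1.04. DSG2, a desmosomal cadherin, went against the list with 2479, 3138 and 2909 against 1098, 799.7 and 846.9 (log2 1.64, adjusted p = 1.08e-06, held) and held after it at 0.80. The list median in shARVCF library 3 was 0.01 relative to the mean of the 6 libraries, beside -0.60 and -0.33 in shARVCF libraries 1 and 2. The count of 14 lower members was 9 without shARVCF library 2, 9 without control library 2 and 8 without control library 3, and 5 against control library 1 alone.

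Of 41 mesenchymal, matrix and contractile genes, 18 were higher (43.9%) and 9 lower (22%), beside 31.9% and 26.8% of all genes (median 0.20). Of them 12 (29.3%) and 3 (7.32%) held, beside 19.2% and 12.1%. FN1, fibronectin, read 205000, 271800 and 196100 against 59420, 71800 and 64700, so that each shARVCF library was more than 2-fold above each control library (log2 1.77, SE 0.14, adjusted p = 8.13e-07, held). ITGAV, the alpha V integrin that binds fibronectin, read 5099, 6750 and 6276 against 1717, 1264 and 1494 (log2 2.02, adjusted p = 2.57e-07, held). ZEB1, a repressor of epithelial genes, read 1504, 1542 and 1540 against 515.3, 445.6 and 461 (log2 1.69, adjusted p = 1.38e-07, held). MYL9 went the other way, with 3950, 4188 and 3873 against 7160, 8184 and 8564 (log2 -0.99, adjusted p = 6.46e-06, held). FN1, ITGAV and ZEB1 held after the removal at 0.99, 0.98 and 0.72, while the list median was 0.04 with 7 higher and 7 lower. Those counts are near the 15.6% and 22.3% of all genes after the removal. MYL9 stood at -0.57 after it and was called but did not hold.

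Targets of beta-catenin and of YAP were more often higher than lower. So were all genes of like length. The median spliced lengths of the Wnt and YAP lists were 4292 and 4895 nt. In the length bins with these values, 45.9% and 50.6% of all genes were higher and 12.1% and 9.75% lower. Of 12 Wnt targets, 7 were higher (58.3%) and 0 lower, beside 31.9% and 26.8% of all genes (median 0.59). As higher 6 held (50%), beside 19.2% of all genes. Without shARVCF library 3, 2 were lower. SOX4, a transcription factor of progenitor cells, read 2153, 1890 and 1892 against 668.5, 420.7 and 508.2 (log2 1.92, adjusted p = 1.1e-06, held), and LEF1, a partner of beta-catenin on DNA, read 1171, 992 and 847.8 against 388.6, 531.8 and 454.2 (log2 1.13, adjusted p = 3.61e-05, held). Both held after removal of the length and GC trend, at 1.37 and 1.03. The feedback inhibitors AXIN2 (log2 1.00, adjusted p = 0.000203) and NKD1 (0.95, adjusted p = 0.00018) held, but stood at 0.80 and 0.03 after it and did not hold. Of the Wnt list 4 were then higher and 1 lower (median 0.18), and 2 held as higher. Of 20 YAP and TAZ targets, 12 were higher (60%) and 3 lower (15%), with a median of 0.50. Of them 8 (40%) and 0 held, beside 19.2% and 12.1% of all genes. PTPN14, a phosphatase that restrains YAP, read 5946, 4219 and 4196 against 798.8, 827.3 and 766.3 (log2 2.57, adjusted p = 4.5e-08, held). TEAD1, the DNA-binding partner of YAP, read 8350, 8756 and 7062 against 2182, 1897 and 1764 (log2 2.05, adjusted p = 8.15e-08, held). Both held after the removal at 1.48 and 0.99, with 8 of the list higher and 3 lower. The list median was then 0.15, and 5 held as higher.

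Among 27 NF-kB genes 10 were higher (37%) and 5 lower (18.5%), not far from the 31.9% and 26.8% of all genes (median 0.32). Of them 7 (25.9%) and 3 (11.1%) held, beside 19.2% and 12.1% of all genes. Without shARVCF library 3 the count called lower was 8. Besides REL and MAP3K1, NFKBIZ, a nuclear modulator of NF-kB, read 556.9, 473.7 and 616.6 against 238.2, 182.4 and 192.8 (log2 1.42, adjusted p = 7.86e-06, held, also after the removal at 0.99). Of 30 interferon response genes, 16 were higher (53.3%) and 2 lower (6.67%), with a median of 0.86. Of them 9 (30%) and 0 held, beside 19.2% and 12.1% of all genes. After removal of the length and GC trend 7 were higher and 0 lower (median 0.38), and only 1 held. This list was uneven among the shARVCF libraries, with medians of -0.13, 0.84 and 0.46 relative to the mean of the 6 libraries, and its median difference without drug was 0.25. Without shARVCF library 1, 22 members were higher and 3 lower (median 1.01). PARP14, a mono-ADP-ribosyltransferase, read 1861, 2168 and 1812 against 965.6, 946.6 and 967.3 (log2 1.01, adjusted p = 5.48e-06, held) and stood at 0.06 after the removal. SAMD9, an antiviral protein, read 610.8, 968.6 and 698.3 against 245.7, 310.4 and 296.5 (log2 1.39, adjusted p = 2.32e-05, held) and stood at 0.32 after it. Of 23 TGF-beta targets 7 were higher (30.4%) and 8 lower (34.8%), shares near those of all genes (median 0.07).

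Of 41 lysosome and autophagy genes, 18 were lower (43.9%) and 6 higher (14.6%), beside 26.8% and 31.9% of all genes (median -0.26). As lower 6 held (14.6%), near the 12.1% of all genes, and as higher 4 (9.76%, beside 19.2%). CTSD, the protease cathepsin D, read 7285, 8801 and 7784 against 13320, 13570 and 12350 (log2 -0.72, adjusted p = 9.54e-05, held). ATP6V0C, the proteolipid of the vacuolar proton pump, read 3146, 3632 and 3714 against 5636, 8541 and 7824 (log2 -1.05, adjusted p = 7.53e-05, held). CTSD and ATP6V0C stood at -0.02 and -0.13 after removal of the length and GC trend, and the list median at -0.03. ATG2B went the other way, with 584.3, 693.7 and 674.5 against 250.7, 204.6 and 230.5 (log2 1.51, adjusted p = 1.85e-06, held). After the removal it stood at 0.36 and did not hold. ATP6V1A also read higher, with 2204, 2763 and 2220 against 1333, 969.7 and 1112. Of 24 genes of cholesterol synthesis and uptake, 6 were higher (25%) and 10 lower (41.7%), beside 31.9% and 26.8% of all genes, with a median of -0.11 that changed sign to 0.01 with library totals as the scaling. LSS, lanosterol synthase, read 382.4, 419 and 414 against 124.3, 136.5 and 119.1 (log2 1.67, adjusted p = 1.52e-06, held), and it held at 1.58 after the removal.

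Of the osteoblast lineage genes, 9 were tested, 2 were higher and 2 lower (22.2% each), beside 31.9% and 26.8% of all genes. RUNX2, the transcription factor that founds the lineage, read 1105, 1035 and 778.1 in the shARVCF and 348.4, 328.4 and 361.3 in the control libraries (log2 1.47, adjusted p = 3e-06, held). ALPL, the alkaline phosphatase of mineralising cells, went the other way, with 632.7, 438.5 and 792.3 against 1385, 1502 and 1265 (log2 -1.19, adjusted p = 0.000307, held). After removal of the length and GC trend neither held (0.68 and -0.74). Of the blood cell markers 5 were tested, with log2 differences from -0.26 to 0.23 that were not called.

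Some called genes depended on which control library they were set against. CMTM8, a membrane protein that limits growth factor signalling, read 460.1, 408 and 344.9 in the shARVCF libraries and 363, 144.2 and 154.1 in control libraries 1, 2 and 3. Control library 1 lay within the shARVCF range. The difference called with all 3 controls (log2 1.00, adjusted p = 0.0424) was 0.15 against control library 1 alone (adjusted p = 0.596). CEPT1, an enzyme of phospholipid synthesis, read 364.9, 417.3 and 405.1 against 289.7, 189.4 and 103.8, with log2 1.14 over all 3 and 0.45 against control library 1 (adjusted p = 0.0719). FANCD2, of the Fanconi anemia repair pathway, read 52.95, 62.9 and 97.85 against 54.15, 26.4 and 28.49, with log2 0.98 over all 3 and 0.34 against control library 1 (adjusted p = 0.539). In PAPPA2, a protease of insulin-like growth factor binding proteins, shARVCF library 3 stood apart at 418.4, beside 58.66 and 55.5 in the other 2 and 10.03, 2.576 and 6.475 in the controls. Its difference (log2 4.08, SE 0.84, adjusted p = 0.0048) was not called against any control library alone.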

How the data were processed

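Poly(A) RNA of U2OS cells was measured by stranded RNA sequencing. Per the submitters' processing notes, bcl2fastq 1.8.3, HISAT2 2.1.0, Cuffnorm 2.2.1 and build hg38 were used, and the annotation behind the symbols is not given. The deposited table holds a signal per gene and library, made by the authors, of estimated fragments scaled per library. In each library, between 77.2% and 79.8% of low values were whole steps of the commonest low value (tolerance 0.01), so whole counts were not recovered. That low value gave the estimated unscaled totals.

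For this work, log2 of the value plus 1 was fitted with limma 3.58.1 (R 4.3.3, statmod 1.5.0) on the 6 nutlin-3a libraries, with variances moderated by a trend and robust weights. Tests were two-sided, adjusted by Benjamini-Hochberg over all genes tested and called at 0.05, with 4 residual degrees of freedom (2 against 1 control library, 6 for the interaction on 10 libraries). Genes had at least 10 scaled fragments in at least 3 of the 6 libraries. Fold changes on this scale understate the change of low genes. Per library, the trend with log2 spliced length and GC was removed with splines of 4 degrees of freedom. In GENCODE release 29, 24016 of the 26040 symbols were found, 720 more under an older name, and 1304 were not found. Positions are in build hg38 and lengths are those of the longest basic transcript, which need not be the mRNA measured. The fits were tested on simulated data.

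Named genes are ARVCF, MDM2 and CDKN1A, then those with the largest differences that held (mean at least 50, 15 each way, no antisense, pseudogene or similar symbols), genes whose call depends on control library 1, up to 4 members of each list with the smallest adjusted p, and members that go against their list. Some are not reported here. The members, lists and tests were chosen with earlier results of these data known, and lists are described by counts, not tested. Same-numbered shARVCF and control libraries deviated together with a correlation of 0.01, -0.04 and 0.01, and the numbers stand for shRNAs in 1 group and repeat libraries in the other, so they were not taken as pairs. Alternatives were other pseudocounts, filters, scalings and moderation, the length and GC removal, a term for the run of library numbers, a replicate block, a fit on all 10 libraries, and each library left out.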

Additional observations from a re-analysis of the deposited data

Results flagged for a closer look

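The difference between shARVCF and control libraries was not the same with and without nutlin-3a for many genes. The interaction term of a limma fit on all 10 libraries, adjusted over all 14477 genes, called 2879 genes in the upward and 1861 in the downward direction, and each value below is that term, the log2 difference with drug minus that without. The lone untreated control library was taken to scatter as the replicated groups do. Of 89 named genes followed here, 78 were called, beside 32.7% of all genes. Of the 2777 genes that held as higher, 2536 were called upward here. Of the 1754 that held as lower, 1508 were called downward. Most of these genes were picked by their difference in the same treated libraries that enter the term. Their counts therefore follow largely from that choice and are no separate evidence. No cause of these differences was tested.

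Among p53 targets the term was positive for MDM2 (1.03), E2F7 (1.62), TP53INP1 (1.35), APAF1 (1.55), ASCC3 (1.46), ACER2 (1.68), RRM2B (0.90) and KITLG (1.00), and negative for SFN (-1.47), TP53I3 (-0.90), BAX (-0.71) and FDXR (-0.82). Among genes of mitosis and replication it was positive for ANLN (2.02), CENPF (1.87), MKI67 (2.13), SMC2 (1.56), DNA2 (1.59), POLE (1.07) and POLA1 (0.81). Among genes of the ribosome, respiration and proteasome it was negative for RPLP2 (-1.37), RPS15A (-1.06), RPS20 (-1.19), RPL18 (-1.14), MRPL27 (-1.45), NDUFA13 (-1.38) and PSMD8 (-1.01), and positive for NDUFS1 (0.53) and EIF4G2 (1.49).

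Among the genes that stood furthest apart it was positive for ARID2 (5.02), POTEE (4.30), KIAA0754 (4.55), MAP3K1 (4.06), REL (3.86), FAM171B (3.73), POTEF (3.92), ZBED6 (3.71), IL6ST (3.56), HIF1A (3.54), ATXN1L (3.92), NCOA2 (3.63), DMXL2 (3.28) and ZNF699 (3.60). It was negative for TIAF1 (-4.48), LDLRAD2 (-3.70), LCE1C (-3.55), YBX2 (-1.82), BCL2A1 (-2.89), SPOCD1 (-2.10), S100A2 (-1.94), TNNT2 (-1.62) and RRAD (-2.20). Among chromatin and splicing genes it was positive for ASXL2 (2.83), KMT2A (2.42), MBNL1 (2.59), SON (1.53) and DDX17 (1.58).

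Among junction, epithelial and mesenchymal genes it was positive for ERBB2IP (1.62), MLLT4 (1.21), PKP2 (1.47), DSG2 (1.69), ZEB1 (1.53), ITGAV (2.07) and FN1 (1.49), and negative for KRT17 (-1.18) and KRT8 (-0.94). Among signalling genes it was positive for SOX4 (2.02), LEF1 (0.99), NKD1 (1.27), AXIN2 (1.33), PTPN14 (2.12), TEAD1 (2.00), NFKBIZ (1.11), PARP14 (0.93) and SAMD9 (1.19). It was also positive for LSS (1.68) and RUNX2 (1.23), and negative for ATP6V0C (-0.93) and CTSD (-0.57).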

How the results depend on the processing

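The counts of 4622 higher and 3879 lower genes stayed within 1.5 times under all alternatives run, except 2230 higher with the length and GC trend removed and 2429 lower against control library 3 alone. Those that held (2777 and 1754) moved to 684 and 952 with that removal, to 1672 and 771 without a filter on low values, when 20043 genes were tested, and lower genes to 1061 without variance trend and robust weights. Leaving out 1 library gave 4113 to 4467 higher and 3417 to 3827 lower genes. With 1 shARVCF library left out, 2019 to 2919 held as higher and 1029 (without library 2) to 2086 (without library 3) as lower. The share of higher among called genes, 54.4%, was 41.2% with the trend removed, 49.9% with upper-quartile factors, 50.7% with relative log expression factors and 62.6% with library totals. Library totals moved the median of all genes from 0.04 to 0.15. MDM2 (-0.15), CDKN1A (0.38), RRM2B (-0.049) and NDUFS1 (-0.50) changed sign with the length and GC removal, and CDKN1A (0.0755) against control library 3 alone. A term for the run of library numbers left 3569 higher and 2971 lower genes. The causes were not tested. A replicate block gave 4541 higher and 3784 lower genes and changed the call of 0 of 89 named genes, although the numbers do not pair the libraries.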
